A study of Mus musculus with 6 samples.

Results

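The interleukins and their receptors were followed in bulk RNA sequencing of mouse cortex after experimental stroke, made by blocking the middle cerebral artery (MCAO). The set held every gene whose symbol in the deposited count table begins with Il and a digit, apart from Il6st, which gave 82 members among 24421 genes. The libraries came from C57BL/6 mice with MCAO, 3 treated with NeuroD1, a proneural transcription factor that the series title describes as an intravenous gene therapy, and 3 treated with green fluorescent protein (GFP), a marker protein. Both groups carried the stroke, so no uninjured brain enters the comparison. The sources used here do not give the time after stroke, the vector and its promoter, or the age of the mice. Nor do the labels say that each numbered replicate is its own animal, and the p-values below describe the spread between libraries, part of which may be technical.

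Interleukins are secreted proteins through which immune cells, glia and vessel cells signal to each other. Members of the IL-1 family act through paired receptor chains that recruit MyD88 and IRAK kinases and activate NF-kappa-B, and they are held back by receptor antagonists, decoy receptors and binding proteins. Most other interleukins act through receptor chains that carry JAK kinases and activate STAT transcription factors, and many of these chains are shared, such as the common gamma chain Il2rg. In the injured brain, IL-1 family cytokines are known for driving inflammation after ischaemia, while IL-4, IL-13 and IL-10 signalling is linked to the resolution of inflammation.

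Total counts ran from 10843273 to 13440244 in the NeuroD1 libraries and from 7753101 to 9698795 in the GFP libraries, so every NeuroD1 library was deeper. Neurod1 was at 48.5, 14.6 and 38.4 CPM (the count as a share of the TMM-scaled library size) in NeuroD1 replicates 1, 2 and 3, and at 6.48, 3.87 and 5.43 CPM in the GFP replicates, higher in 3 of 3 NeuroD1 libraries (edgeR adjusted p = 0.136). The cortical neuron markers were all detected, with summed levels of 1727 to 5244 CPM in NeuroD1 and 2489 to 4578 CPM in GFP libraries. Some libraries stood apart. NeuroD1 replicate 2 had the lowest Neurod1 level of its group and the highest summed level of monocyte and macrophage markers (44909 CPM, against 10455 and 23316 CPM in the other NeuroD1 libraries). GFP replicate 1 had the lowest level of those markers (1536 CPM, against 6837 and 9265 CPM in the other GFP libraries). Spp1 and Gpnmb together made up most of each of these sums. GFP replicate 2 held 7.25% of its counts in the ribosomal RNA precursor Rn45s, where the other libraries held 0.22% to 1.22%, and had 854 CPM of choroid plexus and ependyma markers, against 35.9 to 172 CPM elsewhere.

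In the NeuroD1 libraries 8 receptor chains, an IL-1 antagonist and the cytokine Il16 were higher, and the cytokine Il18 was lower. Among the 11 members with an unadjusted p under 0.05 in edgeR's quasi-likelihood test, the largest fitted differences were those of the IL-1 receptor antagonist Il1rn (7.29-fold), the IL-7 receptor chain Il7r (5.22-fold), the IL-2 and IL-15 receptor chain Il2rb (3.52-fold), the IL-36 receptor Il1rl2 (3.17-fold) and the IL-6 receptor chain Il6ra (2.42-fold), all higher with NeuroD1. The receptor chains Il12rb2, Il4ra, Il1rap and Il13ra1 and the cytokine Il16 were 1.5-fold to 1.95-fold higher, while Il18 was 2.24-fold lower. Il1rapl1, an IL-1 receptor-like protein of synapses, had a fitted fold of 3.01 with overlapping groups and did not reach that threshold (edgeR unadjusted p = 0.0675), and it was picked for mention after its value was seen. No member passed after Benjamini-Hochberg adjustment over all 14852 tested genes, where 0 genes passed (0% of those tested) and the smallest adjusted p was 0.136. The adjusted p of the 11 members lay between 0.136 and 0.175. At the unadjusted threshold there were 3564 genes with edgeR (24% of those tested), while limma-voom called 0 genes after adjustment and DESeq2 called 1366.

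Counted at the unadjusted threshold, 10 of the 39 tested members (25.6%) were higher with NeuroD1, against 12.5% of all tested genes. In the other direction 1 member (2.56%) was lower, against 11.5% of all tested genes. Complete separation of NeuroD1 from GFP libraries was seen in 12 members and in 29.6% of all tested genes. Of these members 10 were higher (25.6%, against 14.2% of all tested genes) and 2 lower (5.13%, against 15.3%). The median log2 fold change of the tested members was 0.37, beside 0.024 for all tested genes, and it was 0.19 with NeuroD1 replicate 2 left out. Of the 28 tested receptor chains 8 were higher and 0 lower at this threshold, and of the 8 tested ligands 1 was higher and 1 lower. Leaving out a library moved both the count of members and the share of all tested genes. Without NeuroD1 replicate 1 there were 6 higher members, with 7.79% of all genes higher, and without GFP replicate 3 there were 6, with 6.13% of all genes higher. Without NeuroD1 replicate 3 there were 16 higher members, with 15.3% of all genes higher, and without GFP replicate 1 there were 3 lower members, with 13.7% of all genes lower.

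**Figure D1:**
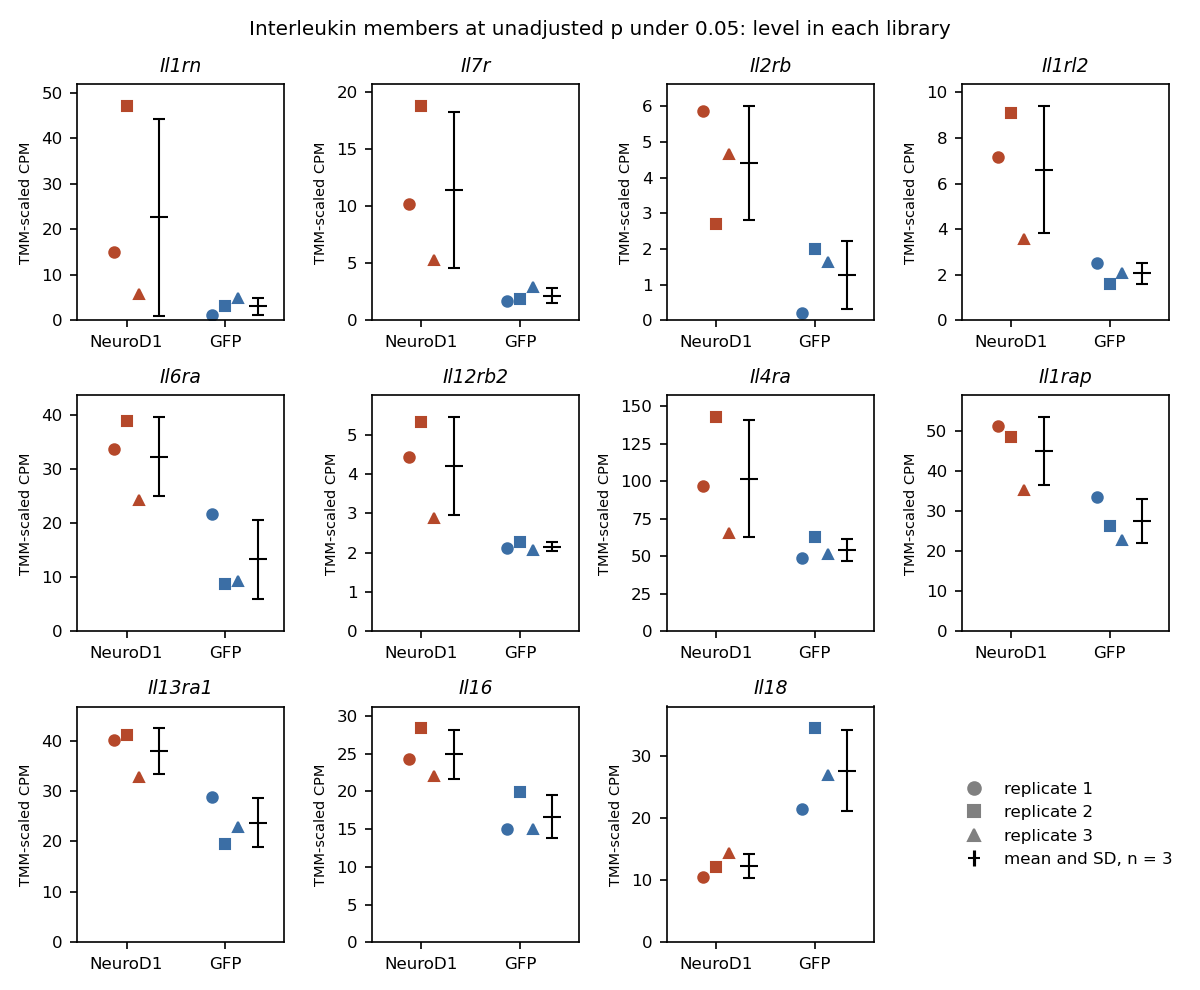
Level of the 11 members with an unadjusted p under 0.05, in TMM-scaled CPM on a linear axis from 0, for NeuroD1 (left) and GFP (right) libraries, with a symbol per replicate and bars for the mean and SD (n = 3). The NeuroD1 points sit above every GFP point in 10 panels and below every GFP point for Il18, and NeuroD1 replicate 2 is far above its group for Il1rn.

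DESeq2, run as an alternative test, called 5 members after adjustment, namely Il7r (adjusted p = 0.000915), Il1rn (adjusted p = 0.00374), Il18 (adjusted p = 0.00513), Il1rl2 (adjusted p = 0.0128) and Il6ra (adjusted p = 0.027). That is 4 higher and 1 lower of 40 members with an adjusted p, where it called 8.91% of all genes, 5.04% higher and 3.87% lower. The 250 bases before the RefSeq start of these 5 genes are shown because they are the members that any of the tests called. RefSeq windows on GRCm38.p6 were found by symbol for 65 of the 82 members. Il1rn has 3 annotated starts, which the counts per gene do not separate, and the window before the outermost one is printed. The windows lie at chr15:9529877-9530126 (minus strand), chr2:24336610-24336859 (plus), chr1:40324339-40324588 (plus), chr3:89913197-89913446 (minus) and chr9:50554450-50554699 (plus), and each reads 5′ to 3′ along its gene. Capitals mark matches, on either strand, to CAGATG (an E-box that NeuroD1 binds), TTCNNNGAA (STAT), TGANTCA (AP-1) or GAGGAA (the core of PU.1).
Il7r: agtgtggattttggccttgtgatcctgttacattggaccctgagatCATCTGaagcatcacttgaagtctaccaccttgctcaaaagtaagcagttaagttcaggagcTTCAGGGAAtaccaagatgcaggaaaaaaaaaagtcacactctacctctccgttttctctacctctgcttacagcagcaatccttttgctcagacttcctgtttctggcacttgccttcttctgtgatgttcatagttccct
Il1rn: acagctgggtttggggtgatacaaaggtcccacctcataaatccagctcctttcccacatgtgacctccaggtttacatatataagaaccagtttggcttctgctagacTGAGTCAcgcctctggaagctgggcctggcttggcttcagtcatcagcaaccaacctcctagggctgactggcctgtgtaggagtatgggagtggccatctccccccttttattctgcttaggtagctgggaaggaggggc
Il6ra: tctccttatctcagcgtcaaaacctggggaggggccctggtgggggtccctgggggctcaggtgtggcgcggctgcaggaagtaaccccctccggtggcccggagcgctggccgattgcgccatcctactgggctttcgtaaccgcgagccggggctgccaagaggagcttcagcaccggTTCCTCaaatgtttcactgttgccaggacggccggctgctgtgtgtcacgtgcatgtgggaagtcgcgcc
Il1rl2: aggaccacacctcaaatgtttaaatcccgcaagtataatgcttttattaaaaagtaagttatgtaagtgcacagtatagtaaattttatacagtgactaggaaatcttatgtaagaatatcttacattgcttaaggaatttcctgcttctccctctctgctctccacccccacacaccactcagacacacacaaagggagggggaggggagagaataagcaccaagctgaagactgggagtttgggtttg
Il18: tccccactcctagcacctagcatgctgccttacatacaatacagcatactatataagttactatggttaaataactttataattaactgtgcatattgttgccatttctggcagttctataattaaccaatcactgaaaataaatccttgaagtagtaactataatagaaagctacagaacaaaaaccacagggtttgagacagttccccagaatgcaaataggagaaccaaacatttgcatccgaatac
The Il7r window held an E-box match starting 204 bases before the RefSeq start and a STAT match 142 bases before it. In the GENCODE annotation Il7r begins farther upstream, at 9530176, so this window lies inside that gene. The Il1rn window held an AP-1 match 141 bases before the start, and the Il6ra window held a PU.1 core 70 bases before it. No searched letters were found in the Il1rl2 and Il18 windows. Of 32851 windows of the same length, 14.4% held the E-box, 7.02% the STAT letters, 6.75% the AP-1 letters and 23.3% the PU.1 core. These matches are a description of the letters and were not tested for binding.

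Of the 82 members, 39 passed the filter on low counts (47.6%, against 60.8% of all genes), 30 had counts but did not pass, and 13 were at 0 in all 6 libraries. The share that passed differed by role. Receptor chains passed in 28 of 37 cases, ligands in 8 of 37 and inhibitors in 3 of 6. Among the tested members 28 exceeded the filter's level of 0.974 CPM in all 6 libraries, and 0 members exceeded it in the libraries of 1 group alone.

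Per kilobase of annotated exon, the most abundant members over all 6 libraries were Il33 (34.2 CPM per kb, range 25.1 to 49.2), Il10rb (21.9, range 14.3 to 40.3), Il18 (19.4, range 10.2 to 33.4), Il10ra (17.3, range 12.4 to 22.8), Il34 (16.2, range 6.72 to 24.4), Il4ra (13, range 8.18 to 23.9) and Il2rg (12.5, range 5.35 to 23.1). The ranges of neighbours in this order overlapped. Il33 averaged 39.4 ± 9.61 CPM per kb in NeuroD1 and 28.9 ± 4.2 in GFP libraries (SD, n = 3 each). Il18 averaged 11.9 ± 1.9 CPM per kb in NeuroD1 and 26.8 ± 6.33 in GFP libraries (SD, n = 3 each), so the GFP levels of these genes lay within their spread of each other and the NeuroD1 levels did not. Il33 is an alarmin released by injured cells, Il34 is a ligand of the microglial survival receptor Csf1r, and Il10ra and Il10rb form the IL-10 receptor.

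**Figure D2:**
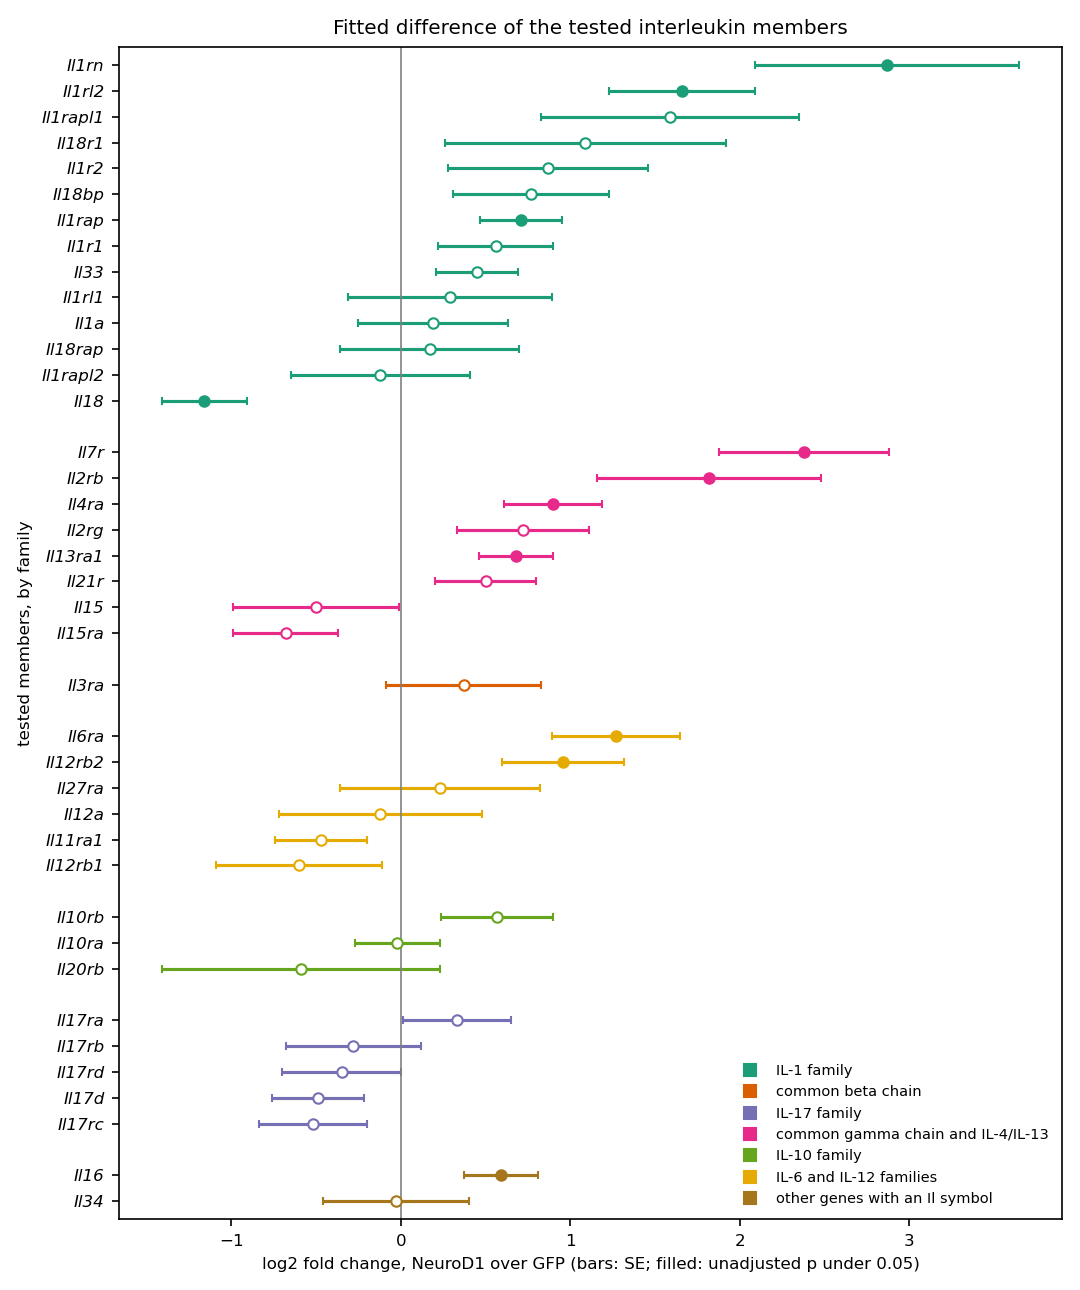
Fitted log2 fold change (NeuroD1 over GFP) with its SE for the 39 tested members, grouped by family, with filled points for an unadjusted p under 0.05. Most IL-1 family and common gamma chain members lie to the right of 0, Il18 lies at -1.16, and 4 of the 5 IL-17 family members lie to the left.

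Among IL-1 family ligands, Il18, a cytokine that caspase-1 cleaves into its active form, was the member that was lower. Il18 (chromosome 9, 50554827 to 50581840, GRCm38) was at 10.5, 12.1 and 14.4 CPM in NeuroD1 replicates 1, 2 and 3 and at 21.5, 34.5 and 26.9 CPM in the GFP replicates. Every NeuroD1 library was below every GFP library. The log2 fold change was -1.16 (SE 0.25, edgeR unadjusted p = 0.00153, adjusted p = 0.136). Without each library in turn it stayed between -1.34 and -0.98, and the unadjusted p stayed at or under 0.00864. Because these are bulk samples, fewer cells of a type and less RNA per cell cannot be told apart.

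The other IL-1 family ligands showed no such separation. Il33 was at 142, 113 and 86.6 CPM in NeuroD1 replicates and at 96.5, 72.5 and 81.5 CPM in GFP replicates, with overlapping groups (log2 fold change 0.45, SE 0.24, edgeR unadjusted p = 0.0971). Il1a, which encodes IL-1 alpha, was at 6.63, 13.2 and 3.77 CPM in NeuroD1 replicates and at 7.90, 5.88 and 6.74 CPM in GFP replicates (log2 fold change 0.19, SE 0.44). The GFP values of Il1a lay inside the NeuroD1 range. Il1b, the main secreted IL-1, had only 10, 11 and 11 counts in NeuroD1 replicates and 1, 4 and 8 counts in GFP replicates, too few to pass the filter. With no filter its log2 fold change was 0.92 (SE 0.71, edgeR unadjusted p = 0.224), and the deeper NeuroD1 libraries together held 1.37 times the counts of the GFP libraries. Il1bos, the antisense transcript at the Il1b locus, had 4 counts in NeuroD1 and 7 in GFP libraries. The strand setting of the counting is not given in the sources used here, and the exons of Il1b and Il1bos share 25 bases.

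Inhibitors of the IL-1 family were led by Il1rn, which encodes a secreted antagonist that occupies the IL-1 receptor without signalling. Il1rn (chromosome 2, 24336853 to 24351494) was at 15, 47.1 and 5.83 CPM in NeuroD1 replicates and at 1.22, 3.21 and 4.89 CPM in GFP replicates. All NeuroD1 libraries were above all GFP libraries, with NeuroD1 replicate 3 and GFP replicate 3 lying close together. The log2 fold change was 2.87 (SE 0.78, edgeR unadjusted p = 0.00583, adjusted p = 0.138). Without NeuroD1 replicate 2 the fold was 3.39 (unadjusted p = 0.0149), less by more than 1.5 times. Il1r2, the decoy receptor for IL-1, was at 1.28, 0.677 and 1.44 CPM in NeuroD1 replicates and at 0.506, 1.07 and 0.326 CPM in GFP replicates, with overlap (log2 fold change 0.87, SE 0.59). Il18bp, which binds IL-18 and blocks it, was at 21.8, 58.4 and 15.9 CPM in NeuroD1 replicates and at 15.1, 21.6 and 19.6 CPM in GFP replicates. Its log2 fold change of 0.77 (SE 0.46) was 0.01 without NeuroD1 replicate 2.

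The receptors of the family were led by Il1rl2, which binds the IL-36 cytokines. Il1rl2 (chromosome 1, 40324610 to 40367562) was at 7.15, 9.10 and 3.59 CPM in NeuroD1 replicates and at 2.53, 1.6 and 2.06 CPM in GFP replicates. The groups did not overlap, and the log2 fold change was 1.66 (SE 0.43, edgeR unadjusted p = 0.00408, adjusted p = 0.136). The IL-36 ligands Il1f6, Il1f8 and Il1f9 and their antagonist Il1f5 were all at 0 in the 6 libraries. Il1rap, the accessory chain that IL-1, IL-33 and IL-36 receptors share, was at 51.2, 48.5 and 35.3 CPM in NeuroD1 replicates and at 33.6, 26.3 and 22.7 CPM in GFP replicates. Its groups were separate but close (log2 fold change 0.71, SE 0.24, edgeR unadjusted p = 0.016), and the p was 0.0586 without NeuroD1 replicate 1 and 0.0735 without GFP replicate 3. Its exons share 552 bases with Gm20319 on the other strand.

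Signalling and IL-33 receptors of the family overlapped between groups. Il1r1, the signalling IL-1 receptor, was at 35.8, 67.7 and 26.3 CPM in NeuroD1 replicates and at 26.1, 30.5 and 31.6 CPM in GFP replicates (log2 fold change 0.56, SE 0.34). NeuroD1 replicate 2 stood above the other libraries, and without it the log2 fold change was 0.09. Il1rl1, the IL-33 receptor chain, was at 1.81, 1.45 and 0.628 CPM in NeuroD1 replicates and at 1.32, 1.47 and 0.435 CPM in GFP replicates (log2 fold change 0.29, SE 0.60). Its direction was reversed without NeuroD1 replicate 1 or without GFP replicate 3. In all, 3 of the 14 tested IL-1 family members were higher and 1 was lower at an unadjusted p under 0.05. These are 21.4% and 7.14%, beside 12.5% and 11.5% of all tested genes. The median log2 fold change of the family was 0.63.

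**Figure D3:**
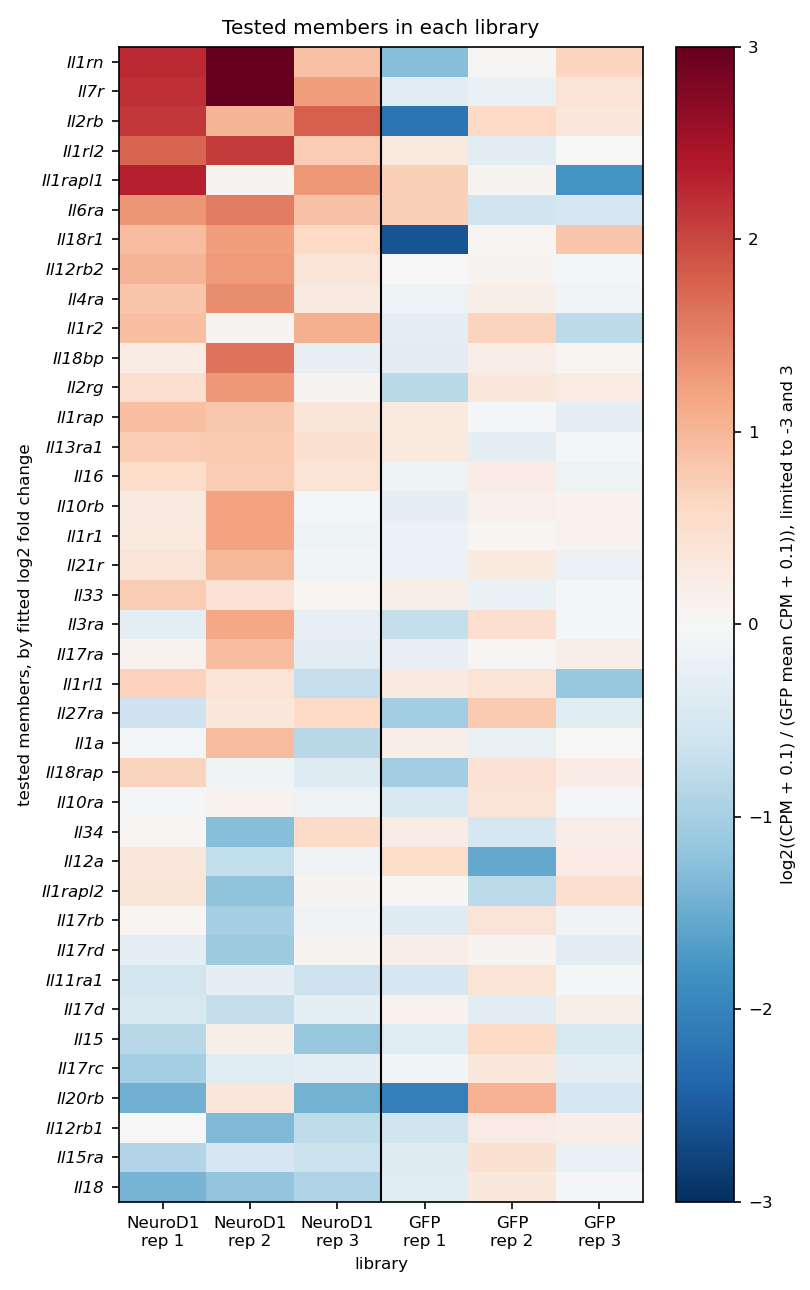
Level of each tested member in each library relative to the GFP mean, as log2((CPM + 0.1) / (GFP mean CPM + 0.1)) limited to -3 and 3, with members ordered by fitted log2 fold change and NeuroD1 libraries left of the line. NeuroD1 replicate 2 is the highest library for 17 members and GFP replicate 1 the lowest for 15.

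In the common gamma chain and IL-4/IL-13 family, 4 of 8 tested members (7 receptor chains and the ligand Il15) were higher and 0 lower. These are 50% and 0%, beside 12.5% and 11.5% of all tested genes. The median log2 fold change of the family was 0.70. Il7r, the chain through which lymphocytes receive IL-7 survival signals, lies on chromosome 15 (9505788 to 9530176). It was at 10.2, 18.8 and 5.30 CPM in NeuroD1 replicates and at 1.72, 1.87 and 2.93 CPM in GFP replicates. All NeuroD1 libraries were above all GFP libraries, and the log2 fold change was 2.38 (SE 0.50, edgeR unadjusted p = 0.00126, adjusted p = 0.136). It stayed between 1.84 and 2.73 without each library in turn. Il7 itself had 8 counts in NeuroD1 and 5 in GFP libraries.

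Il2rb, a signalling chain for IL-2 and IL-15 on T cells and natural killer cells, was at 5.87, 2.71 and 4.67 CPM in NeuroD1 replicates and at 0.203, 2.0 and 1.63 CPM in GFP replicates. GFP replicate 1, with 2 counts, was the lowest, and the groups did not overlap (log2 fold change 1.82, SE 0.66, edgeR unadjusted p = 0.0237). The p was 0.0717 without NeuroD1 replicate 1. Its partner Il2rg, the common gamma chain, was at 32.1, 55.3 and 23.8 CPM in NeuroD1 replicates and at 12.8, 28.2 and 26.5 CPM in GFP replicates, with overlap (log2 fold change 0.72, SE 0.39, edgeR unadjusted p = 0.0993). Il2rg exons share 728 bases with Gm20489 on the same strand. Summed T cell markers (10 genes, of which 4 of 8 tested were higher and 0 lower) were at 43.9, 43.7 and 41.7 CPM in NeuroD1 replicates and at 10.8, 20.6 and 26.0 CPM in GFP replicates. The 4 higher markers were 50% of those tested, beside 12.5% of all tested genes. In NeuroD1 replicate 2, Cd4 alone made up 25.4 CPM of the sum. Cd3d, Cd2, Lck and Cd6 were lower there than in GFP replicates 2 and 3, and Cd3e lay between their levels. Cd3g, Cd4, Cd5, Cd8a and Cd8b1 were above every GFP library. None of the 10 markers was at 0 in all libraries. Il7r (18.8 CPM) and the summed monocyte and macrophage markers (44909 CPM) were highest in NeuroD1 replicate 2, where Il2rb (2.71 CPM) was lowest of its group. The part of either set of markers in the Il7r and Il2rb values was not tested.

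Il4ra and Il13ra1, receptor chains for IL-4 and IL-13, were both higher at the unadjusted threshold. Il13ra2, with 14 counts in NeuroD1 and 5 in GFP libraries, did not pass the filter. Il4ra (chromosome 7, 125552120 to 125579474) was at 97.2, 143 and 65.5 CPM in NeuroD1 replicates and at 49.1, 63.0 and 51.3 CPM in GFP replicates. The groups were separate by a narrow margin, between NeuroD1 replicate 3 and GFP replicate 2 (log2 fold change 0.90, SE 0.29, edgeR unadjusted p = 0.0141). Il4ra exons share 571 bases with Gm44876 on the other strand. Il13ra1, which pairs with Il4ra in the receptor that binds both cytokines, was at 40.1, 41.0 and 32.7 CPM in NeuroD1 replicates and at 28.9, 19.4 and 22.8 CPM in GFP replicates. Its groups did not overlap (log2 fold change 0.68, SE 0.22, edgeR unadjusted p = 0.0147), and the p was 0.0596 without GFP replicate 2 and 0.056 without GFP replicate 3. The ligands were scarce, with 1 count of Il4 in NeuroD1 and 2 in GFP libraries and 0 counts of Il13.

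IL-15 and its private receptor chain had fitted values below 0. Il15ra, which presents IL-15 to neighbouring cells, was at 4.97, 6.48 and 5.83 CPM in NeuroD1 replicates and at 6.99, 12.7 and 8.04 CPM in GFP replicates. The groups did not overlap, and the test did not reach the unadjusted threshold (log2 fold change -0.68, SE 0.31, edgeR unadjusted p = 0.0618). Il15 was at 2.03, 4.16 and 1.62 CPM in NeuroD1 replicates and at 2.84, 5.61 and 2.61 CPM in GFP replicates, with overlap (log2 fold change -0.50, SE 0.49).

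In the IL-6 and IL-12 families 2 of 6 tested members were higher and 0 lower (33.3% and 0%, beside 12.5% and 11.5% of all tested genes). The median log2 fold change was 0.05, with 3 fitted values above 0 and 3 below. Those below were Il12rb1 (-0.60, SE 0.49), Il11ra1 (-0.47, SE 0.27) and Il12a (-0.12, SE 0.60), all with overlapping groups. Il6ra, the IL-6 binding chain that signals with Il6st, lies on chromosome 3 (89864059 to 89913196). It was at 33.7, 38.9 and 24.4 CPM in NeuroD1 replicates and at 21.8, 8.82 and 9.34 CPM in GFP replicates. GFP replicate 1 came near the lowest NeuroD1 library, and the groups did not overlap (log2 fold change 1.27, SE 0.38, edgeR unadjusted p = 0.00921, adjusted p = 0.141). Il6st, the shared gp130 chain, was at 218, 207 and 169.6 CPM in NeuroD1 replicates and at 191, 119 and 116 CPM in GFP replicates, with overlap (log2 fold change 0.48, SE 0.26). Il6 had 1, 0 and 1 counts in NeuroD1 replicates and 6, 0 and 1 counts in GFP replicates.

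Il12rb2, an IL-12 receptor chain, was at 4.44, 5.32 and 2.87 CPM in NeuroD1 replicates and at 2.13, 2.27 and 2.06 CPM in GFP replicates (log2 fold change 0.96, SE 0.36, edgeR unadjusted p = 0.0282). The groups did not overlap, but the p was 0.0597 to 0.0846 without any 1 library other than NeuroD1 replicate 3. Its exons share 1519 bases with those of Serbp1 on the other strand in GENCODE M21, so its reads are uncertain without strand. Il12b, a subunit of IL-12 and IL-23, had 6 counts in NeuroD1 and 3 in GFP libraries.

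In the IL-10 family 0 of 3 tested members had an unadjusted p under 0.05 in edgeR's test, beside 24% of all tested genes. Il10ra was at 59.0, 65.9 and 55.1 CPM in NeuroD1 replicates and at 43.3, 79.7 and 59.5 CPM in GFP replicates (log2 fold change -0.02, SE 0.25). The NeuroD1 values lay inside the GFP range. Il10rb, which also serves IL-22 and interferon lambda receptors, was at 81.3, 154 and 63.8 CPM in NeuroD1 replicates and at 54.5, 74.7 and 71.7 CPM in GFP replicates (log2 fold change 0.57, SE 0.33). Without NeuroD1 replicate 2, its highest library, the log2 fold change of Il10rb was 0.12. Il10rb exons share 569 bases with Gm21970 on the same strand. Il10 had 0, 2 and 1 counts in NeuroD1 replicates and 0 in each GFP replicate, where 0 counts allow up to 3 counts, or 0.116 CPM over the 3 GFP libraries together.

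The IL-17 family stood at lower fitted values in 4 of its 5 tested members, with a median log2 fold change of -0.35. With edgeR 0 of the 5 had an unadjusted p under 0.05, beside 24% of all tested genes. The tested members were the receptor chains Il17ra, Il17rb, Il17rc and Il17rd and the ligand Il17d, with log2 fold changes from -0.52 to 0.33. The T cell cytokines of this family were nearly undetected, with Il17a at 0 in all libraries and Il17f at 3 counts in NeuroD1 and 0 in GFP libraries.

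Il16 and Il34 belong to none of these families. Il16, which encodes a precursor of a CD4-binding chemoattractant, was at 24.3, 28.4 and 22.0 CPM in NeuroD1 replicates and at 15, 19.9 and 15 CPM in GFP replicates. Its groups were separate by a narrow margin (log2 fold change 0.59, SE 0.22, edgeR unadjusted p = 0.0295). The p was 0.0607 without NeuroD1 replicate 1, 0.0665 without NeuroD1 replicate 2, 0.0853 without GFP replicate 1 and 0.111 without GFP replicate 3. Il16 exons share 1202 bases with Stard5 on the other strand. Il34 was at 33.1, 13.2 and 47.8 CPM in NeuroD1 replicates and at 37.1, 22.3 and 36.6 CPM in GFP replicates (log2 fold change -0.03, SE 0.43). The GFP values of Il34 lay inside the NeuroD1 range, and summed cortical neuron markers were also lowest in replicate 2 of each group, at 1727 CPM in NeuroD1 and 2489 CPM in GFP. Their part in the Il34 values was not tested.

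**Figure D4:**
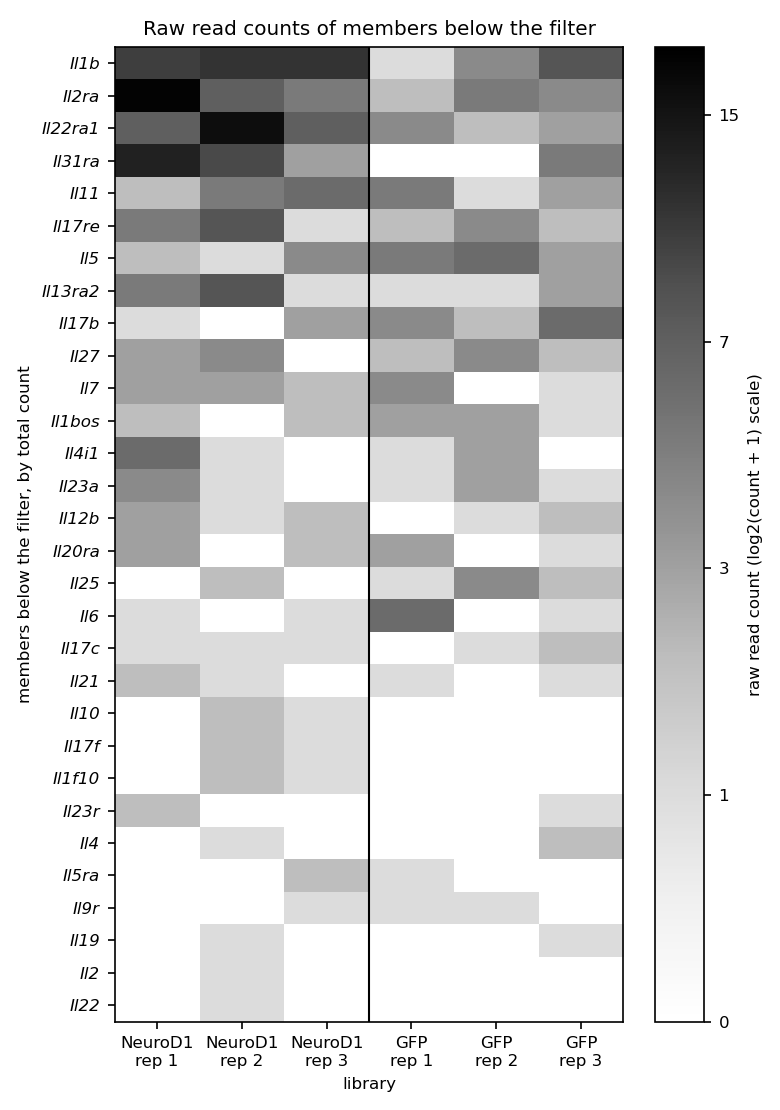
Raw read counts, shaded on a log2(count + 1) scale, of the 30 members that had counts but did not pass the filter, with NeuroD1 libraries left of the line. Il1b, Il2ra and Il22ra1 have the most counts, at 45, 41 and 39 over all libraries.

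The 30 members below the filter had between 1 and 45 counts over the 6 libraries. With no filter, 0 of them had an unadjusted p under 0.05 in edgeR's test, and the smallest was 0.0738 for the IL-22 receptor chain Il22ra1, with 30 counts in NeuroD1 and 9 in GFP libraries. Il22ra1, the IL-2 receptor alpha chain Il2ra (30 counts in NeuroD1 and 11 in GFP libraries) and the IL-31 receptor Il31ra (25 and 5 counts, NeuroD1 and GFP) were picked for mention after their values were seen, as were the other ligands and antagonists named here for their receptors. Counts appeared in NeuroD1 libraries alone for 5 of the 30 and in GFP libraries alone for 0. The deeper NeuroD1 libraries allow a lower level to be seen, since a count of 0 in a single library allows up to 0.223 to 0.277 CPM there and up to 0.309 to 0.387 CPM in a GFP library. These limits cover counting error only. The 13 members at 0 included Il17a, Il13, Il3, Il9, Il20, Il24 and Il31, and 0 counts over all 6 libraries allow up to 0.0488 CPM.

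Genes that carry or restrain interleukin signals were counted from lists of receptor partners, kinases, STAT factors, inhibitors and NF-kappa-B relays. Of 76 tested genes on these lists, 16 (21.1%) were higher and 3 (3.95%) lower at an unadjusted edgeR p under 0.05, beside 12.5% and 11.5% of all tested genes. The median log2 fold change was 0.25. Of the signalling genes named here at that threshold, Csf2rb, Clcf1, Rel and Tnfaip3 kept it whichever single library was left out, and the other 12 lost it without at least 1 library.

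Receptor partners were not all on the same side. The beta chains Csf2rb (2.19-fold) and Csf2rb2 (1.71-fold), which serve IL-3, IL-5 and GM-CSF, were higher in mean level with NeuroD1, although their groups overlapped (edgeR unadjusted p = 0.0114 and 0.0355). Clcf1, a cytokine that signals through gp130, was at 3.39, 3.0 and 3.05 CPM in NeuroD1 replicates and at 5.97, 16.4 and 12.3 CPM in GFP replicates, with every NeuroD1 library lower (log2 fold change -1.87, SE 0.40, edgeR unadjusted p = 0.00131). In all, 3 of 13 tested partners were higher and 1 lower (23.1% and 7.69%, beside 12.5% and 11.5% of all tested genes).

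Among the kinases and factors downstream, Jak1, which most cytokine receptors use, was at 270.2, 209 and 196 CPM in NeuroD1 replicates and at 166, 118 and 127 CPM in GFP replicates (log2 fold change 0.72, SE 0.24, edgeR unadjusted p = 0.0157). Of 4 JAK kinases 1, Jak1, was past the unadjusted threshold (25%, beside 24% of all tested genes). Jak2 and Tyk2 had log2 fold changes of 0.35 (SE 0.20) and -0.12 (SE 0.24). Stat4, which relays IL-12, had a log2 fold change of 1.07 (SE 0.42, edgeR unadjusted p = 0.0331). Stat6, which relays IL-4 and IL-13, had 0.74 (SE 0.32, edgeR unadjusted p = 0.051). Jak1 and Stat4 were separate between the groups and Stat6 was not.

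Of the inhibitors 16.7% and of the processing genes 14.3% were higher at the unadjusted threshold, beside 12.5% of all tested genes. None was lower, beside 11.5% of all tested genes. Of 12 SOCS and related inhibitors 2 were higher and 0 lower at the unadjusted threshold, namely Pias1 (log2 fold change 0.61, SE 0.22) and the phosphatase Ptpn6 (0.85, SE 0.37), and Socs4 had 1.07 (SE 0.50, edgeR unadjusted p = 0.0613). Of 7 genes that process IL-1 and IL-18, 1 was higher, the inflammasome sensor Nlrc4 (log2 fold change 1.52, SE 0.56, edgeR unadjusted p = 0.0263). Casp1, the enzyme that cleaves IL-18, was at 11.0, 20.5 and 11.8 CPM in NeuroD1 replicates and at 8.71, 12 and 9.13 CPM in GFP replicates (log2 fold change 0.54, SE 0.31). The groups overlapped for Casp1 and for the sensor Nlrp3 (log2 fold change 0.44, SE 0.29).

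The counts that follow stand beside 12.5% of all tested genes higher and 11.5% lower at the unadjusted threshold. In the relay downstream of IL-1 receptors, 1 of 11 genes was higher, the kinase Irak4 (log2 fold change 0.72, SE 0.30). The adaptor Tab1 was lower (-0.57, SE 0.23), while Tollip had 0.37 (SE 0.22). Of 13 NF-kappa-B genes 4 were higher and 0 lower. Their median log2 fold change was 0.04, with 7 fitted values above 0 and 6 below. The subunit Rel was at 7.98, 6.48 and 4.22 CPM in NeuroD1 replicates and at 2.73, 0.534 and 1.30 CPM in GFP replicates (log2 fold change 1.99, SE 0.54, edgeR unadjusted p = 0.00564), and its log2 fold change was 2.69 without GFP replicate 1. The feedback inhibitor Tnfaip3 (0.95, SE 0.29) and the kinase subunit Ikbkg (0.50, SE 0.19) were also separate between the groups. Nfkbia (-0.51, SE 0.26) and Chuk (-0.25, SE 0.18) were separate in the other direction and did not reach the unadjusted threshold. Of 5 IL-17 relay genes, Cebpd was lower (log2 fold change -0.54, SE 0.21), while Traf3ip2 (-0.19, SE 0.34) and Cebpb (0.60, SE 0.53) overlapped. Of 4 tested T cell transcription factors tied to interleukins, Maf (1.24, SE 0.41) and Prdm1 (0.84, SE 0.35) were higher, the second with overlapping groups.

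**Figure D5:**
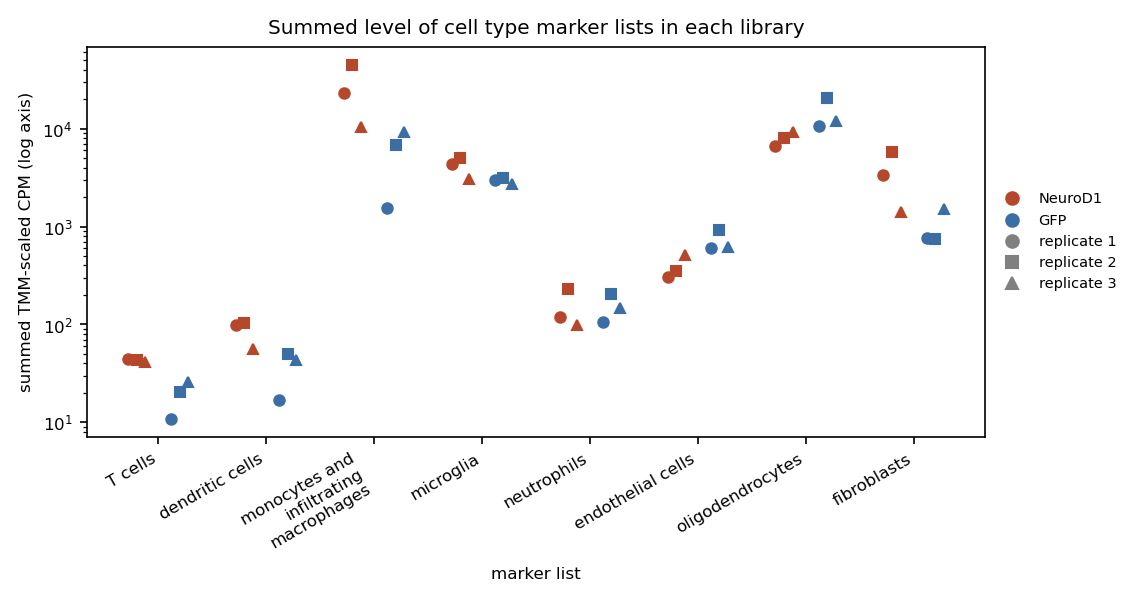
Summed TMM-scaled CPM of cell type marker lists in each library on a log axis, with NeuroD1 left of GFP for each list and a symbol per replicate. T cell, dendritic cell and monocyte and macrophage sums are higher in every NeuroD1 library than in any GFP library, and endothelial and oligodendrocyte sums are lower. Itgax makes up the larger part of the dendritic cell sum in every library except GFP replicate 1. The neutrophil sums, most of which is Csf3r in the GFP libraries, overlap.

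Markers of several cell types that carry interleukin receptors differed between the groups alongside the members. At the unadjusted threshold used for these counts, 12.5% of all tested genes were higher and 11.5% lower. Of 9 tested markers of monocytes and infiltrating macrophages 8 were higher, and their summed level was 10455 to 44909 CPM in NeuroD1 and 1536 to 9265 CPM in GFP libraries. Spp1 made up the larger part of that sum in every library except GFP replicate 1, where it was at 619 CPM. Gpnmb was next, at 1891 to 9629.7 CPM in NeuroD1 and 566 to 1134 CPM in GFP libraries. Ccr2, Ly6c2 and Plac8 were highest in NeuroD1 replicate 1, and the other markers of this list in NeuroD1 replicate 2. Dendritic cell markers (3 of 7 higher) summed to 56.5 to 103 CPM in NeuroD1 and 16.8 to 50.5 CPM in GFP libraries. Itgax alone made up 76.9, 84.8 and 36.6 CPM of that sum in NeuroD1 replicates and 5.57, 28.7 and 25.3 CPM in GFP replicates. Xcr1 and Clec9a were also higher with separate groups, while Flt3, Zbtb46, Cd209a and Batf3 overlapped. The log2 fold changes of Flt3 (-0.33, SE 0.32) and Batf3 (-0.50, SE 0.46) were below 0. Microglia markers (1 of 9 higher, 1 lower) summed to 3024 to 4986 CPM in NeuroD1 and 2694 to 3109.9 CPM in GFP libraries, with overlap, and the defining microglial gene Tmem119 was at 132, 158 and 125 CPM in NeuroD1 replicates and at 128, 158 and 118 CPM in GFP replicates. Neutrophil markers (2 of 4 higher) summed to 98.4 to 232 CPM in NeuroD1 and 107 to 205 CPM in GFP libraries. In GFP replicates 1, 2 and 3, Csf3r alone made up 99.3, 194 and 129 CPM of that sum. Csf3r had a log2 fold change of -0.66 (SE 0.30), while S100a8, Mmp8 and Mmp9 had 1.81, 2.53 and 1.15. The neutrophil genes S100a9, Cxcr2, Retnlg, Camp and Ngp did not pass the filter, while Ly6g was not analysed here. Fibroblast markers (7 of 7 higher) summed to 1400.3 to 5738 CPM in NeuroD1 and 742 to 1521 CPM in GFP libraries, with overlap, and cycling markers (5 of 5 higher) to 185 to 643 CPM in NeuroD1 and 109 to 135 CPM in GFP libraries. Endothelial markers (6 of 9 lower) summed to 304 to 509 CPM in NeuroD1 and 605 to 932 CPM in GFP libraries, and oligodendrocyte markers (4 of 7 lower) to 6694 to 9200.1 CPM in NeuroD1 and 10557 to 20652 CPM in GFP libraries. Natural killer markers summed to 3.87 to 6.93 CPM in NeuroD1 and 1.11 to 3.61 CPM in GFP libraries, with 1 of 7 tested and 0 passing the unadjusted threshold. Astrocyte markers (2 of 7 lower) summed to 5453 to 10077 CPM in NeuroD1 and 9254 to 15399 CPM in GFP libraries. The part of these cell types in the member values was not tested.

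The members also differed among libraries of the same group. NeuroD1 replicate 2 was the highest of the 6 libraries for 17 of the 39 tested members (43.6%, against 29% of all tested genes), and GFP replicate 1 was the lowest for 15 (38.5%, against 13% of all tested genes). Summed over all members the level was 874, 1169.9 and 680.3 CPM in NeuroD1 replicates and 612, 724 and 664 CPM in GFP replicates, where NeuroD1 replicate 3 lay below GFP replicate 2. Of the 11 members with an unadjusted p under 0.05, 6 kept it whichever single library was left out, namely Il1rn, Il7r, Il1rl2, Il6ra, Il4ra and Il18.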

How the data were processed

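The authors deposited raw read counts per gene symbol; the file headers name featureCounts and a gene file for mm10. The submitters' processing notes list HISAT2 2.0.1, DESeq2 1.16.1 and GRCm38 with no roles. Whether strand was used, and how reads with several map positions were treated, is not stated in the sources used. Columns were matched to samples by their description in the labels, and 0 columns were left unused.

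Computed here: edgeR 4.0.16 (R 4.3.3) quasi-likelihood F-test, TMM scaling, treatment as the only term, filterByExpr (minimum count 10, minimum total 15), Benjamini-Hochberg adjustment over the 14852 tested genes (threshold 0.05), and an unadjusted threshold of 0.05 for counts of members. Each SE is the log2 fold change divided by the root of F. Levels are TMM-scaled CPM, with exon lengths, overlaps and coordinates from GENCODE M21 (GRCm38). The fit was tested on simulated data. Alternatives were DESeq2 1.42.0, limma-voom (limma 3.58.1), other scalings, no filter, a replicate block and leaving out each library. No library was a duplicate of another (chi-square per gene 33.8 to 126 within groups and 29.1 to 165 between groups). The smallest value, 29.1, was between NeuroD1 replicate 3 and GFP replicate 1.

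The members and lists were chosen with earlier results of these data known. Named were Neurod1, tested members with an unadjusted p under 0.05 or separate groups, 21 members fixed by name, and the 3 genes of smallest p in each signalling list, of which some are not reported here; other names were chosen after their values were seen.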

Additional observations from a re-analysis of the deposited data

How the results depend on the processing

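The count of genes past the adjusted threshold was 0 with edgeR under either other scaling and with no filter, 0 with limma-voom (smallest adjusted p 0.149), 1366 with DESeq2, and 0 to 1 with each library left out. The 10 higher members were 9 to 11 under the other tests, scalings and filter, where 9.94% to 12.9% of all genes were higher, and 6 to 16 without each library, where 6.13% to 15.3% were. The 1 lower member was 2 with upper quartile scaling, where 13.9% of all genes were lower, and 1 to 3 without each library, where 5.4% to 13.7% were. The median log2 fold change of the members was 0.28 to 0.40 across the tests and scalings, and 0.19 to 0.61 without each library. The 11 members with an unadjusted p under 0.05 kept their direction in all 12 alternatives.

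Over 50 named genes and 12 alternatives, 586 of 600 values kept their direction, and the cause of the other 14 was not tested. Il1a was at -0.005 with limma-voom and between -0.39 and 0.53 without each library. Il10ra was at 0.02 with limma-voom, 0.01 with no filter and 0.02 with the replicate block, and between -0.24 and 0.22 without each library. The ranges without each library were -0.09 to 0.62 for Il1rl1, -0.46 to 0.34 for Il34, -0.31 to 0.005 for Tyk2 and -0.24 to 0.90 for Cebpb.

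With the replicate number as a block, edgeR called 479 genes, among them Il18 (adjusted p = 0.0468), and 11 members were higher and 2 lower at the unadjusted threshold, where 17.8% of all genes were higher and 15.9% lower. The labels do not say what the number marks. Deviations of same-numbered libraries correlated at 0.539, 0.371 and 0.039, so the numbers are not taken to pair them. Each NeuroD1 library correlated best with its own number, and GFP replicate 3 correlated best with NeuroD1 replicate 2 (0.129). At 7753101 to 13440244 counts per library, 8 of 37 ligands passed the filter and 10 were at 0.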
